A study of Mus musculus with 12 samples.

Results

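The mRNA levels of 9 mouse genes of renal glucose production, fructose use and glucose transport were followed in kidney tissue: Pcx, Pck1, Fbp1, G6pc, Slc37a4, Khk, Slc2a2, Slc5a2 and Slc5a1. They were chosen by name as a pathway list, with earlier results of these data known. Each matched 1 row of a table of read counts for 55487 genes. The table holds 12 libraries of RNA from kidney tissue, which the labels give as cortex, from mice of C57BL/6 background aged 6 to 8 weeks. Control animals carried the floxed ALR gene (Gfer, augmenter of liver regeneration) without Cre. In the knockout animals (proximal tubule knockout, KO) Ggt1-Cre was added to delete ALR, which the authors describe for proximal tubular cells. The other cells of the tissue are meant to keep the gene. Ischemia and reperfusion (I/R) was 22 min of ischemia of both kidneys followed by 24 h of reperfusion, and the other animals had a sham operation. The 4 groups, named as in the labels and of 3 libraries each, were sham controls (Control), controls after I/R (Control-IR), sham knockouts (KO) and knockouts after I/R (KO-IR). The comparisons ask how the genes respond to I/R and whether the response differs with the loss of ALR.

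The proximal tubule takes filtered glucose back from the urine and is, beside the liver, the main site where glucose is made from lactate, glutamine and glycerol. Pyruvate carboxylase (Pcx) and the cytosolic phosphoenolpyruvate carboxykinase (Pck1) begin the pathway, fructose-1,6-bisphosphatase (Fbp1) acts in its middle, and glucose-6-phosphatase (G6pc) with the glucose-6-phosphate carrier of the endoplasmic reticulum (Slc37a4) releases free glucose. Ketohexokinase (Khk) phosphorylates fructose. The cotransporters SGLT2 (Slc5a2, in the early tubule) and SGLT1 (Slc5a1, in the late tubule) bring glucose in from the lumen, and GLUT2 (Slc2a2) lets glucose and fructose leave across the basolateral membrane.

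In the annotation GENCODE M21 on GRCm38 all 9 are protein-coding genes. Those the results turn on most are Slc2a2 at chr3:28697903-28731359, Slc5a1 at chr5:33104219-33162870, Slc37a4 at chr9:44396852-44402968 and Pck1 at chr2:173153048-173159273, all on the plus strand. Slc5a2 (chr7:128265657-128272430) shares 597 exon bases with BC017158 on the other strand. That gene had 296 to 534 counts per library against 3816 to 13894 for Slc5a2, and whether strand was used in the counting is not given in the sources used here. No other member shares exon bases with a neighbour in this annotation.

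RefSeq promoters on GRCm38.p6 were matched for 8 of the 9 genes, with 11 promoters in all, of 250 bases before to 50 after the start. Both strands were searched for letters of factors known to act on these genes: the short site of HNF1 (GTTAAT), that of the cyclic AMP response element (TGACG), that of nuclear receptors such as HNF4 (AGGTCA), that of the glucocorticoid receptor (AGAACA), the FOXO site (GTAAACA), and the full HNF1, cyclic AMP and DR1 sites. The short sites are parts of the full ones, so that matches of the 2 kinds overlap. GTTAAT was found in Pck1, G6pc and Khk and is in 7.1% of the 32851 promoters of the table. TGACG was found in Pck1, Slc37a4 and Khk (20.8% of promoters), AGGTCA in G6pc, Pcx, Slc37a4 and Slc2a2 (16.3%), and AGAACA in Slc5a1 (19.0%). The FOXO letters, in 3.65% of promoters, and the 3 full sites matched none of the 11. The 250 bases before the start are printed for Slc2a2 and Slc5a1, the genes that fell most in KO-IR against Control-IR with no overlap, and for Pck1 and G6pc, whose differences in that comparison were not called. Capitals mark the matched letters, in either orientation: AGGTCA from base -21 of Slc2a2, AGAACA from base -26 of Slc5a1, the reverse of GTTAAT from base -192 and of TGACG from base -90 of Pck1, and GTTAAT from base -221 and the reverse of AGGTCA from base -54 of G6pc.
Slc2a2, chr3:28697653-28697902, plus strand: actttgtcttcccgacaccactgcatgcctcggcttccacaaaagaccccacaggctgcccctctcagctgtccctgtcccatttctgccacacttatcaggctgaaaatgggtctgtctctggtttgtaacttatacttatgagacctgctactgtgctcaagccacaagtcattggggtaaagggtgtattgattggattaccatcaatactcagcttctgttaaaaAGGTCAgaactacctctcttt
Slc5a1, chr5:33103969-33104218, plus strand: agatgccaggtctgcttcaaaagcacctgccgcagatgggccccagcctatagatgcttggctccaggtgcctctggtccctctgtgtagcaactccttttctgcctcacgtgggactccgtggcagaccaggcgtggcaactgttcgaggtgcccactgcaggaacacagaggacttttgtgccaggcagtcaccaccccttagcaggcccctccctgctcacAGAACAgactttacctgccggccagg
Pck1, chr2:173152823-173153072, plus strand: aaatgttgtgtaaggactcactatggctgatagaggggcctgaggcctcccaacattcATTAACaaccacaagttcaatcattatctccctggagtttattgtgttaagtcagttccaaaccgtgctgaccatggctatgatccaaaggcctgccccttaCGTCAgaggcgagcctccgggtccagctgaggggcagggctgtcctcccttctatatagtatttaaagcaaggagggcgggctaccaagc
G6pc, chr11:101367466-101367715, plus strand: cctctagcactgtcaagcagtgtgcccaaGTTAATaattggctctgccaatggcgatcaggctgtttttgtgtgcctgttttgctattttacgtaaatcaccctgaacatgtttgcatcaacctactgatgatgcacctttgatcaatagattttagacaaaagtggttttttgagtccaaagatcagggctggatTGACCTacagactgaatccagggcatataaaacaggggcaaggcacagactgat
The genes thus differ in the letters they hold, which is a description of the sequence and no evidence of binding.

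Several facts of the libraries bear on the results. Library totals ran from 12165089 to 23123693 counts. Levels are given as CPM, the counts of a gene per 1000000 counts of its library, with the library total corrected by TMM, a factor for library composition. The targeted gene was not lower in the libraries labelled knockout: Gfer had 12.8 ± 1.52 CPM (SD, n = 3) in Control, 14.0 ± 3.68 in KO, 17.6 ± 2.34 in Control-IR and 22.0 ± 0.674 in KO-IR, and its log2 difference between KO and Control was 0.13 (SE 0.20, edgeR adjusted p 0.761). The counts cover the whole gene, so reads of the deleted exons cannot be set apart, and KO below names the libraries labelled so. The authors report decreased renal ALR expression in their knockout mice relative to controls. The column of Control library 3 matches no control title (these are numbered 1, 2 and 4), and its group is taken from the column name. Xist, the transcript of the inactive X chromosome in females, was present in Control libraries 1 and 2 with 22402 and 19755 counts and no Y-linked counts, while the other 10 libraries had at most 11 Xist counts and 3109 to 5251 Y-linked counts. Sex and group are therefore partly confounded wherever Control enters, and results with Control are also given without these 2 libraries, for the lists of related genes as counts. That fit holds the other 10 libraries together, so it leaves Control library 3 as the only Control library and assumes that it varies like the libraries of the other groups. The labels do not say that each library came from an animal of its own, so p-values measure the spread between libraries, which may be technical in part.

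Markers of the proximal tubule fell after I/R as well. The summed level of 10 marker genes (among them Lrp2 and Slc34a1) was 19400 to 20400 CPM in Control, 6160 to 12500 in Control-IR, 19000 to 21600 in KO and 4820 to 5590 in KO-IR, and no marker was at 0 in every library. In Control-IR against Control, KO-IR against KO and KO-IR against Control-IR, 7.97%, 32.7% and 24.4% of all genes tested were called lower. In the same order 11.4%, 32.9% and 22.5% were called higher. After I/R 5 of the 10 markers were called lower in controls and all 10 in KO, and 6 of the 10 were called lower in KO-IR than in Control-IR and none higher (median log2 difference -1.30). Slc13a3 (-2.77), Aqp1 (-2.56), Pdzk1 (-2.37) and Cubn (-2.04) had the most negative differences of the 10 (edgeR adjusted p 2.013e-04, 0.00160, 5.427e-04 and 4.673e-04), while Slc27a2 had 0.16 (edgeR adjusted p 0.388). The part of the markers in the differences of the 9 genes was not tested. Of 4 markers of the straight segment, where SGLT1 acts, the sum was 1580 to 3520 CPM in Control, 1810 to 2040 in Control-IR, 3520 to 4820 in KO and 1200 to 2000 in KO-IR. Its members went in different directions: in KO-IR against KO Slc6a18 was called higher (0.99) and Slc7a13 (-3.80), Slc22a7 (-3.11) and Atp11a (-2.24) lower by edgeR, and in KO-IR against Control-IR only Atp11a was called (-1.05). Markers of other cells moved too. Of 4 thick ascending limb markers none was called in Control-IR against Control, 3 were called lower in KO-IR against Control-IR (median log2 difference -1.73) and all 4 in KO-IR against KO, and of 6 distal tubule and collecting duct markers 3, 2 and 5 were called lower in these comparisons. In Control-IR against Control 5 of 6 macrophage and neutrophil and 3 of 4 fibroblast markers were called higher, the fibroblast sum being 106 to 157 CPM in Control and 392 to 563 in Control-IR, and in KO-IR against Control-IR 3 of the 6 were called higher and 3 lower and 2 of the 4 lower. Slc7a13, of the straight segment, had 2.56 and 4.1 CPM in 2 Control libraries and 928 CPM in the other. In the other groups it had at least 52.9 CPM. Control libraries 1 and 2 held Xist, so sex and group are partly confounded in the Control levels of the markers too. The part of sex in them was not tested. In bulk tissue fewer cells of a type and less RNA per cell cannot be told apart. Of 5 hepatocyte genes, whose cells also make glucose, albumin (Alb) had at most 19.2 CPM in any library, and Fga, a fibrinogen gene, gave 2170 to 3890 of the summed 2260 to 3970 CPM in KO-IR. In KO-IR against Control-IR 3 of the 4 tested (Alb 2.79, Fga 2.09 and Ttr 0.74 on the log2 scale) were called higher by edgeR and none lower, in KO-IR against KO Alb and Fga were called higher and Ttr, Apoa2 and Serpina1c lower, and in Control-IR against Control 1 was called higher and 2 lower.

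In sham controls Pck1 and Fbp1 had the highest levels of the 9. Per kilobase of exon, the mean level in Control was 756.8 CPM per kb for Pck1 and 648 for Fbp1, followed by G6pc with 242, Slc5a2 with 230.3, Khk with 216, Pcx with 120.0, Slc37a4 with 86.4, Slc2a2 with 55.9 and Slc5a1 with 30.15. Between neighbours in this order the ranges over the 3 libraries overlapped for G6pc, Slc5a2 and Khk and for Pcx and Slc37a4, and the other neighbours did not overlap. Khk, Slc5a1 and Fbp1 were the steadiest, with coefficients of variation of 1.52%, 1.94% and 2.56% over the 3 libraries. The order was different in KO-IR, where Pck1 still led with a mean of 696.9 CPM per kb, ahead of Fbp1 with 156, and Slc2a2 was last: its level of 1.86 to 4.55 CPM per kb lay below that of Slc5a1, at 5.15 to 6.48.

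**Figure D1:**
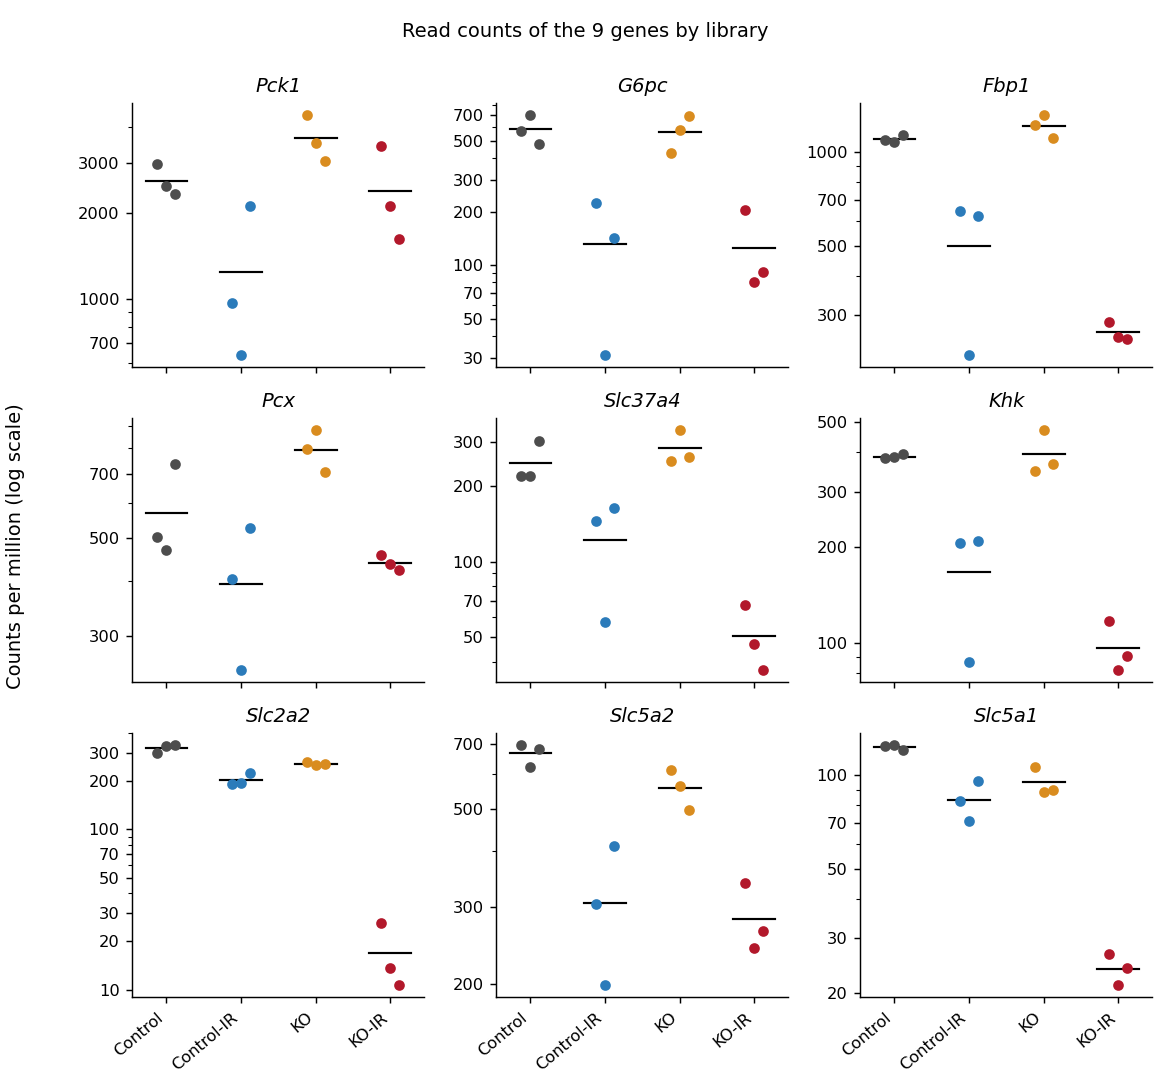
Level of each of the 9 genes in CPM (y axis, log scale) in the 12 libraries, grouped by genotype and treatment (x axis). Points are libraries and bars are group means of 3 libraries. Slc2a2 in KO-IR lies at 10.7 to 26.2 CPM, below every other library, while Pck1 spans overlapping ranges in the groups after I/R.

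After I/R, all 9 genes were lower in value in controls, and 5 of them (G6pc, Khk, Slc2a2, Slc5a2 and Slc5a1) were called lower, meaning a Benjamini-Hochberg adjusted p under 0.05 in the quasi-likelihood test of edgeR. Of all 15567 genes tested in that comparison 19.4% were called and 7.97% were called lower. For 8 of the 9 genes (all but Pcx) every Control-IR library was below every Control library, beside 22.3% of all genes tested in that direction. In KO all 9 genes were called lower after I/R, where 65.5% of 15155 genes were called and 32.7% were called lower, and 8 (all but Pck1) did not overlap, beside 35.0% of all genes in that direction. Between the groups after I/R, 3 genes (Slc37a4, Slc2a2 and Slc5a1) were called lower in KO-IR than in Control-IR and none higher, beside 46.9% of 15281 genes called and 24.4% called lower. Slc2a2 and Slc5a1 did not overlap between those groups, beside 29.1% of all genes in that direction. The same 3 genes were called for a larger fall after I/R in KO than in controls, by the interaction of genotype and I/R over all 12 libraries, where 30.6% of 16168 genes were called and 16.4% in that direction. The median log2 difference of the 9 genes was -1.06 in Control-IR against Control, -2.04 in KO-IR against KO and -0.81 in KO-IR against Control-IR, where the medians of all genes tested were -0.011, 0.011 and -0.0049. These comparisons share groups of libraries, so they are not independent of each other.

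The 5 calls in controls did not hold in every fit with fewer libraries, and the log2 differences moved with the library left out. Without Control library 1, without Control library 2 or without Control-IR library 1, edgeR called 0 of the 9 genes in Control-IR against Control, and 2.39%, 2.56% and 5.28% of all genes. In these fits the log2 differences were -0.71 to -0.63 for Slc2a2, -0.56 to -0.54 for Slc5a1, -1.16 to -1.08 for Slc5a2, -1.39 to -1.19 for Khk and -2.74 to -1.96 for G6pc. Over all 6 fits that left out 1 library, Slc2a2 had -0.74 to -0.62 and Slc5a1 -0.68 to -0.45. Slc5a2 had -1.40 to -0.88, Khk -1.39 to -0.87 and G6pc -2.74 to -1.65. Of the genes not called, Pck1 had -1.69 to -0.73, Fbp1 -1.37 to -0.77, Slc37a4 -1.27 to -0.66 and Pcx -0.79 to -0.27. Without Control library 3 edgeR called only Slc2a2 (14.0% of all genes), and without both Control libraries with Xist, where Control is 1 library and the spread comes from the other groups, only Slc5a2 (6.92%). DESeq2, another count test, called 8 (all but Pcx), beside 26.0% of all genes. The fall kept its direction in every one of these fits for all 9 genes. Without both Control libraries with Xist the log2 differences were -1.25 for Khk, -0.76 for Slc2a2, -1.18 for Slc5a2 and -0.56 for Slc5a1. In that fit G6pc had -1.88, Slc37a4 -1.32, Fbp1 -1.2, Pck1 -0.93 and Pcx -0.92. Control-IR library 2 had the lowest level of its group for all members but Slc2a2 and the lowest summed marker level of its group.

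**Figure D2:**
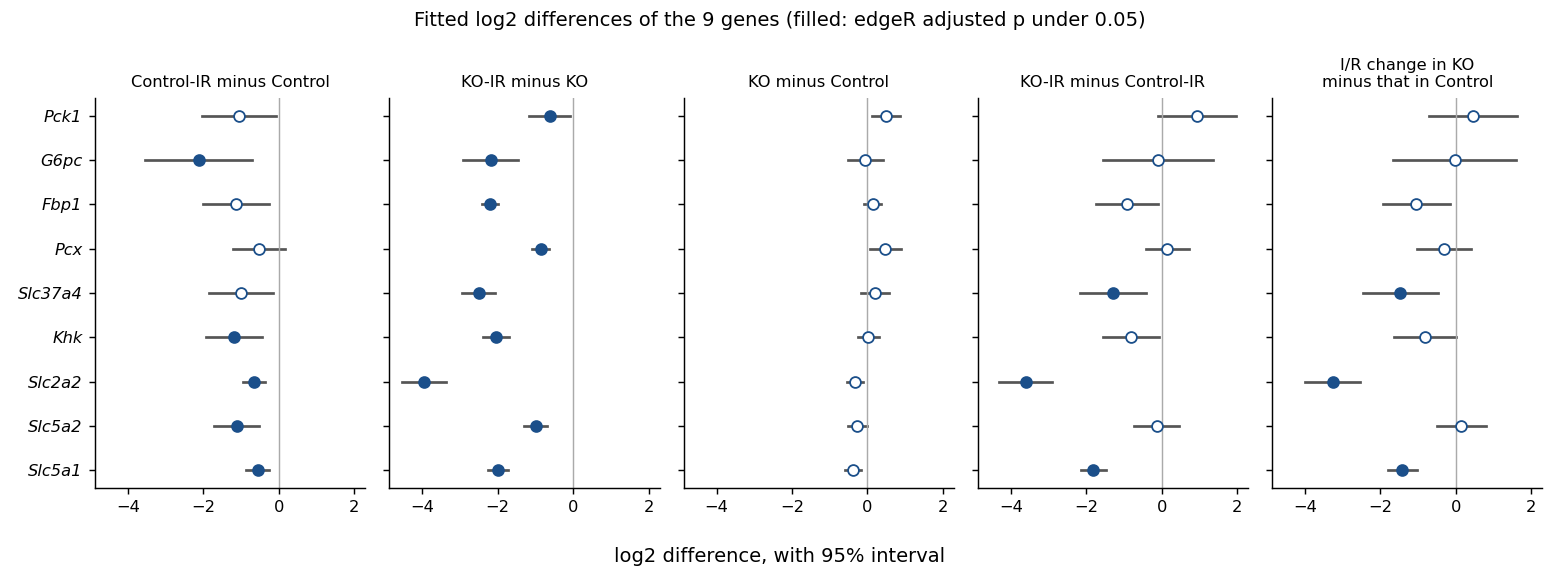
Fitted log2 difference (x axis) of each gene (y axis) in the 4 comparisons and in the interaction, with its 95% interval from edgeR. Filled points have an adjusted p under 0.05. All 9 points are filled in KO-IR minus KO, and Slc2a2 stands at -3.61 in KO-IR minus Control-IR.

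Slc2a2 (GLUT2) showed the largest difference of the 9 between the groups after I/R. Its level was 299, 329.8 and 337 CPM in Control libraries 1 to 3, 191, 195 and 223 CPM in Control-IR, 263, 251 and 256 CPM in KO, and 26.2, 13.7 and 10.7 CPM in KO-IR. No group overlapped another in the comparisons made, and the highest KO-IR library was far below the lowest Control-IR library. The KO-IR mean was 8.33% of the Control-IR mean, a log2 difference of -3.61 (SE 0.31) with an edgeR adjusted p of 2.331e-04. Of the genes tested, 1.11% had a more negative difference. Within KO the mean after I/R was 6.57% of that without (log2 difference -3.96, SE 0.26, edgeR adjusted p 9.12e-07). Within controls it was 62.9% (log2 difference -0.66, SE 0.12, edgeR adjusted p 0.0165). The change differed between genotypes by -3.27 on the log2 scale (SE 0.34, edgeR adjusted p 8.377e-05). The call between the groups after I/R and the call of the interaction held in all 14 and all 19 alternative fits, each leave-one-library-out fit and the fit without the Control libraries with Xist included.

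Slc5a1 (SGLT1) showed the same order of group means. It had 125, 126 and 121 CPM in Control, 82.8, 71.3 and 96.0 CPM in Control-IR, 107, 88.6 and 89.4 CPM in KO, and 26.6, 21.2 and 23.9 CPM in KO-IR. The KO-IR libraries lay below all others, and Control libraries above all others. The KO-IR mean was 28.7% of the Control-IR mean (log2 difference -1.81, SE 0.15, edgeR adjusted p 2.019e-04), and 25.2% of the KO mean (log2 difference -2.003, SE 0.12, edgeR adjusted p 3.709e-07). In controls the mean after I/R was 67.4% of that without (log2 difference -0.56, SE 0.13, edgeR adjusted p 0.0273). The interaction was -1.42 (SE 0.17, edgeR adjusted p 2.066e-04), and this gene too was called in all 14 and all 19 alternative fits of the 2 tests.

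Slc5a2 (SGLT2), the cotransporter of the early tubule, was called lower after I/R in both genotypes, and its difference between the groups after I/R was not called. Its level was 698, 623 and 681 CPM in Control, 305, 199 and 411 CPM in Control-IR, 611, 561 and 496 CPM in KO, and 339, 242 and 264 CPM in KO-IR. The groups after I/R overlapped, and both lay below their sham groups. The mean after I/R was 45.7% of the sham mean in controls (log2 difference -1.12, SE 0.26, edgeR adjusted p 0.0272) and 50.6% in KO (log2 difference -0.99, SE 0.14, edgeR adjusted p 1.237e-04). Between the groups after I/R the log2 difference was -0.13 with a 95% interval of -0.722 to 0.47 (edgeR adjusted p 0.715), and the interaction was 0.15 with an interval of -0.514 to 0.809 (edgeR adjusted p 0.742). Per kilobase, the ratio of Slc5a2 to Slc5a1 had a median of 7.94 in Control (7.02 to 7.97), 5.21 in Control-IR (3.96 to 6.06), 8.12 in KO (7.86 to 8.97) and 16.2 in KO-IR (15.6 to 18.1), so the highest ratios were those of KO-IR.

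Pck1, which turns oxaloacetate into phosphoenolpyruvate, had the highest mean in KO-IR relative to Control-IR of the 9 genes, a difference that was not called. It had 2965, 2489 and 2331 CPM in Control, 969.7, 635.5 and 2112 CPM in Control-IR, 4409, 3521 and 3037 CPM in KO, and 3425, 2114 and 1629 CPM in KO-IR. Control-IR library 4 stood at more than 2 times the other 2 of its group and inside the range of KO-IR. The mean of KO-IR was 193% of that of Control-IR, with a log2 difference of 0.94 (95% interval -0.102 to 1.97, edgeR adjusted p 0.121). Without Control-IR library 4 the difference was 1.56 and called (edgeR adjusted p 0.00962). After I/R the mean was 47.7% of the sham mean in controls (log2 difference -1.06, edgeR adjusted p 0.107), a fall called without Control-IR library 4 (-1.69, edgeR adjusted p 0.00834). In KO it was 65.4% (log2 difference -0.62, SE 0.24, edgeR adjusted p 0.0440), with KO-IR library 2 inside the range of KO, and that call was lost without KO library 1 or 2 or without KO-IR library 3 or 4 (log2 differences of -0.65 to -0.40, edgeR adjusted p of 0.0733 to 0.155). The ratio of Pck1 to Slc2a2 per kilobase was 5.48 to 15.9 in Control-IR and 220.0 to 259 in KO-IR.

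Pcx, which feeds pyruvate into the pathway, had 505, 471 and 736 CPM in Control, 404, 251 and 529 CPM in Control-IR, 796, 881 and 706 CPM in KO, and 459.5, 438 and 425 CPM in KO-IR. Control library 3, the control without Xist, was inside the KO range, and the groups after I/R overlapped. In KO the mean after I/R was 55.5% of the sham mean (log2 difference -0.86, SE 0.10, edgeR adjusted p 4.583e-05). In controls it was 69.2% and overlapped (log2 difference -0.52, SE 0.30, edgeR adjusted p 0.235). That difference in controls was -0.92 without the Control libraries with Xist, and -0.79 to -0.27 with 1 library left out. Between the groups after I/R the log2 difference was 0.15 with a 95% interval of -0.417 to 0.714 (edgeR adjusted p 0.646).

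G6pc, the last enzyme, was called lower after I/R in both genotypes. It had 567, 702 and 482 CPM in Control, 223, 31.0 and 143 CPM in Control-IR, 428, 574 and 692 CPM in KO, and 204, 80.8 and 91.2 CPM in KO-IR. Every library after I/R was below every sham library, and Control-IR library 2 was the lowest of the 12. The mean after I/R was 22.6% of the sham mean in controls (log2 difference -2.13, SE 0.61, edgeR adjusted p 0.0481) and 22.2% in KO (log2 difference -2.19, SE 0.32, edgeR adjusted p 2.077e-04). The call in controls held in 1 of 6 fits that left out 1 library, that without Control-IR library 2, with log2 differences of -2.74 (without Control-IR library 1) to -1.65, and was lost without the Control libraries with Xist (-1.88). The call in KO held in all 6 such fits. The interaction was -0.03 with a wide 95% interval of -1.66 to 1.6 (edgeR adjusted p 0.981), which holds large differences in both directions.

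Its partner Slc37a4, which carries glucose-6-phosphate to the enzyme, did differ by the test. Its level was 220.0, 219 and 301 CPM in Control, 145, 57.6 and 163 CPM in Control-IR, 253, 335 and 262 CPM in KO, and 67.3, 46.9 and 37.0 CPM in KO-IR. Control-IR library 2 lay among the KO-IR libraries, so the groups after I/R overlapped. The KO-IR mean was 41.4% of the Control-IR mean (log2 difference -1.29, SE 0.38, edgeR adjusted p 0.0252) and 17.8% of the KO mean (log2 difference -2.50, SE 0.20, edgeR adjusted p 3.12e-06). The interaction was -1.47 (SE 0.46, edgeR adjusted p 0.0295). Both calls were lost in some fits with 1 library fewer, where the differences stayed near their size. The first held in 2 of 6 fits that left out 1 library, with log2 differences of -1.23 to -1.02 and edgeR adjusted p of 0.0618 to 0.0986 without Control-IR library 1 or 4 or KO-IR library 3 or 4, and the interaction held in 5 of 12, being lost without Control library 1 or 2, Control-IR library 1 or 4, KO library 2 or KO-IR library 3 or 4 (-1.43 to -1.22, edgeR adjusted p of 0.0634 to 0.077). Without both Control libraries with Xist the interaction was -1.20 (edgeR adjusted p 0.203).

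Fbp1 and Khk had similar patterns over the groups. Fbp1 had 1096, 1080 and 1135 CPM in Control, 646.8, 224 and 625.5 CPM in Control-IR, 1218, 1314 and 1111 CPM in KO, and 285, 257 and 253 CPM in KO-IR. Khk had 383, 387 and 394 CPM in Control, 207, 86.8 and 209.6 CPM in Control-IR, 348, 472 and 367 CPM in KO, and 117, 81.8 and 90.8 CPM in KO-IR. Control-IR library 2 was below the KO-IR range for Fbp1 and inside it for Khk, and for both genes the other 2 libraries of its group were above that range. In KO the mean after I/R was 21.8% of the sham mean for Fbp1 (log2 difference -2.20, SE 0.10, edgeR adjusted p 1.035e-07) and 24.4% for Khk (log2 difference -2.04, SE 0.16, edgeR adjusted p 2.167e-06). In controls it was 45.2% for Fbp1 (log2 difference -1.14, edgeR adjusted p 0.0692) and 43.3% for Khk (log2 difference -1.20, SE 0.32, edgeR adjusted p 0.0399). Between the groups after I/R neither was called (Fbp1 -0.92 and Khk -0.81, edgeR adjusted p 0.0634 and 0.0688). Without Control-IR library 2 both were called lower in KO-IR (-1.28 and -1.13, edgeR adjusted p 1.557e-04 and 8.234e-04).

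Between the sham groups edgeR called 0 of 15291 genes, the 9 included, so percent called was 0.0, while 2573 genes had an unadjusted p under 0.05. Among them were 5 of the 9, with Pck1 (log2 difference 0.49) and Pcx (0.48) higher and Slc2a2 (-0.33), Slc5a2 (-0.26) and Slc5a1 (-0.39) lower in KO. The groups did not overlap for Pck1, higher in KO, nor for the 3 transporters, lower in KO, beside 9.76% and 11.2% of all genes tested in those directions. DESeq2 called Pck1, Slc2a2 and Slc5a1 (adjusted p of 0.0375, 0.0385 and 0.0365), beside 3.0% of all genes. Without Control library 3, edgeR called Pcx (0.70, adjusted p 0.00431) and Slc5a1 (-0.40, adjusted p 0.0328), beside 12.4% of all genes. Without the Control libraries with Xist, leaving Control library 3 alone, the log2 differences were 0.64 for Pck1, 0.10 for Pcx and -0.41, -0.30 and -0.36 for Slc2a2, Slc5a2 and Slc5a1.

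**Figure D3:**
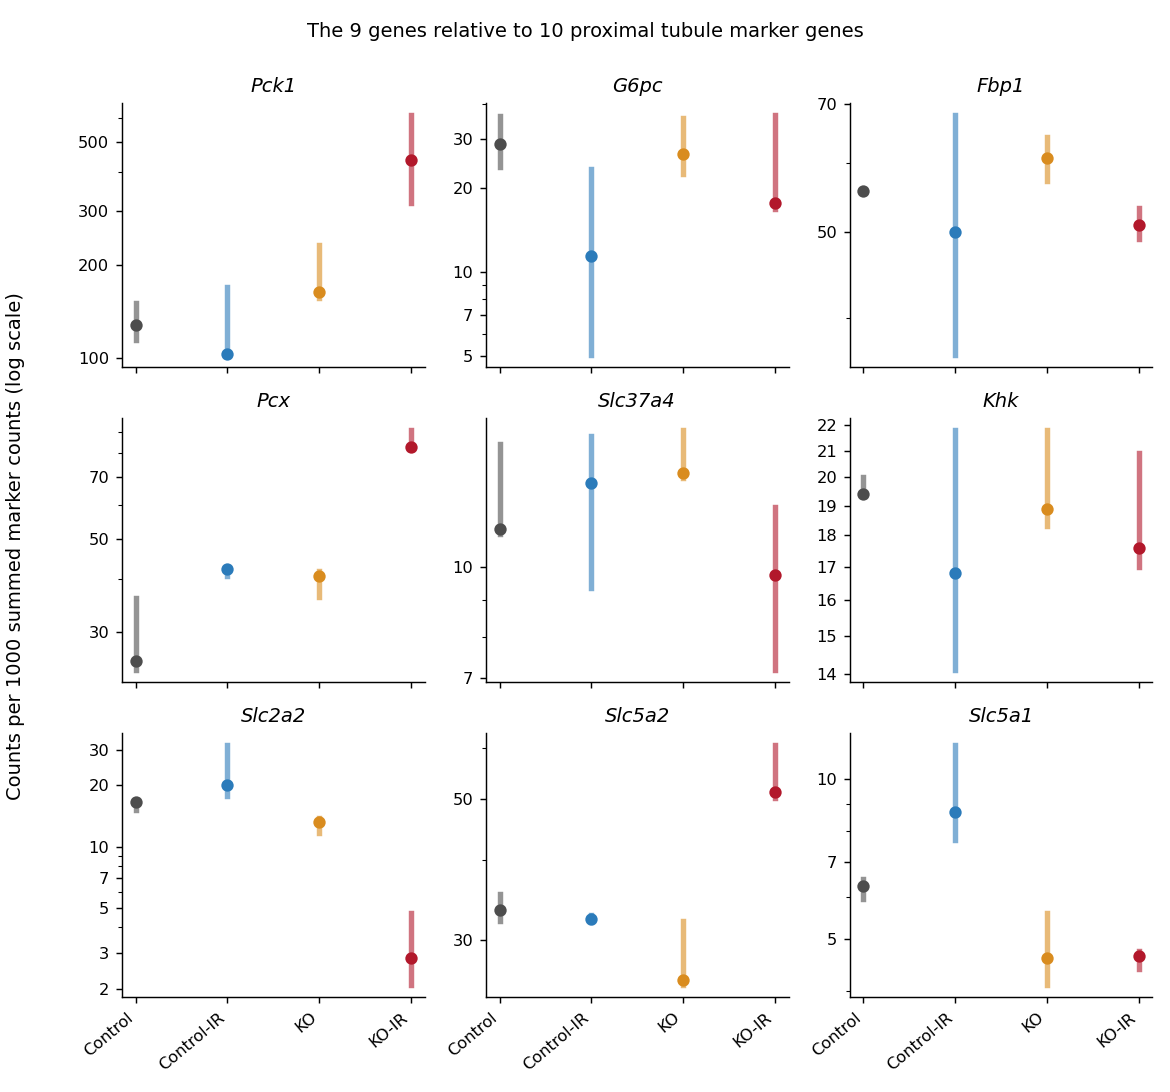
Counts of each gene per 1000 counts of the 10 summed proximal tubule markers (y axis, log scale) in the 4 groups (x axis). Points are medians and bars run from the lowest to the highest of 3 libraries. Slc2a2 in KO-IR lies below all other groups, and Pck1, Pcx and Slc5a2 in KO-IR lie above them.

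Set against the proximal tubule markers, the genes differed in direction, given here as a description with no test. The marker sum is uneven: Slc27a2 gave 42.3% to 49.1% of it in KO-IR and 15.4% to 31.5% in the other groups. Slc2a2 stayed low in KO-IR, with 2.08 to 4.69 counts per 1000 marker counts, beside 17.8 to 31.6 in Control-IR and 11.6 to 13.8 in KO. Pck1 (317 to 613), Pcx (82.2 to 90.8) and Slc5a2 (50.1 to 60.7) were higher relative to the markers in KO-IR than in any library of the other groups, which reached 232, 42.4 and 35.4. Khk was at a median of 19.4 in Control and 17.6 in KO-IR, and Fbp1 was 55.5 to 55.7 and 49.2 to 53.3. Slc37a4 was 11.1 to 14.8 in Control, 9.35 to 15.2 in Control-IR, 13.3 to 15.5 in KO and 7.19 to 12.1 in KO-IR. Slc5a1 was 4.39 to 4.76 in KO-IR, inside the KO range of 4.1 to 5.61, and 7.69 to 11.6 in Control-IR. G6pc had 16.8 to 36.5 in KO-IR and 5.04 to 23.4 in Control-IR. With the sum taken without Slc27a2, a choice made after seeing the data, Slc2a2 was still lowest in KO-IR (3.6 to 8.4, beside 14.8 to 46.1 elsewhere), and Pck1, Pcx and Slc5a2 were still highest there. Other values moved: Slc5a1 was 8.06 to 8.62 in KO-IR, above its KO range of 5.23 to 6.85, Fbp1 was 85.2 to 105 beside 72.4 to 78.3 in KO, Khk was 30.6 to 37.5 beside 22.4 to 27.8, and Slc37a4 was 12.5 to 21.6 beside 16.2 to 19.8.

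**Figure D4:**
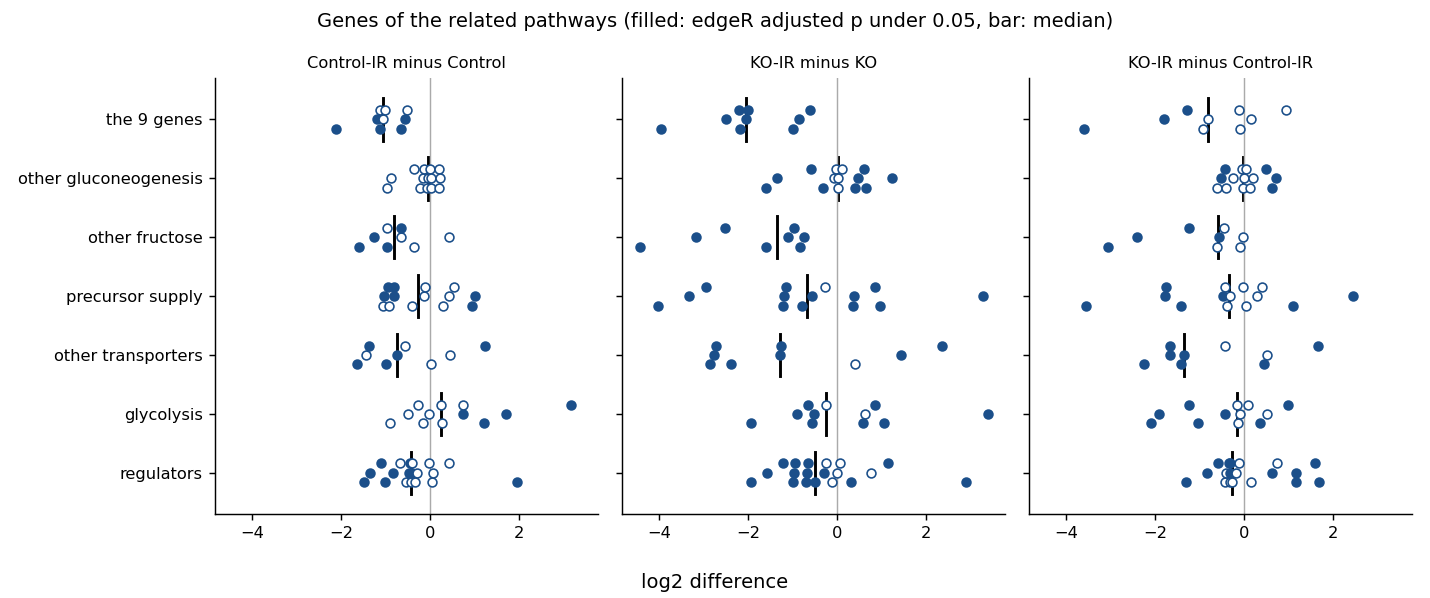
Log2 difference (x axis) of every tested gene of the 9 and of 6 lists of related genes (y axis) in 3 comparisons. Filled points have an edgeR adjusted p under 0.05 and bars mark the median of each list. All 8 other genes of fructose metabolism are filled and below 0 in KO-IR minus KO.

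Other genes of fructose metabolism were called lower after I/R in both genotypes. Of 8 such genes 4 were called lower and none higher in Control-IR against Control (7.97% of all genes tested were called lower), all 8 were called lower in KO-IR against KO (32.7%, median log2 difference -1.35), and 4 were called lower in KO-IR against Control-IR (24.4%). Slc2a5 (GLUT5), the apical fructose transporter, had 104 ± 10.9 CPM in Control, 33.7 ± 16.3 in Control-IR, 90.0 ± 7.02 in KO and 3.99 ± 1.48 in KO-IR (SD, n = 3). Its log2 difference between the groups after I/R was -3.05 (SE 0.45, edgeR adjusted p 0.00146). Glycerate kinase (Glyctk), which completes the breakdown of fructose, fell by 2.41 on that scale (edgeR adjusted p 2.619e-04), sorbitol dehydrogenase (Sord), which makes fructose from sorbitol, by 1.25 (edgeR adjusted p 0.0122), and triokinase (Tkfc) by 0.58 (edgeR adjusted p 0.0159).

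The other enzymes of gluconeogenesis, most of them shared with glycolysis, were called in both directions in the comparisons with KO-IR. None of 14 tested was called in Control-IR against Control by edgeR, and their median log2 difference was -0.056. In KO-IR against Control-IR 3 were called higher and 2 lower, and in KO-IR against KO 5 higher and 4 lower, beside 46.9% and 65.5% of all genes called. In the interaction 4 were called higher and 1 lower, beside 30.6% of all genes called. Gapdh (0.72) and the aspartate aminotransferases Got1 (0.62) and Got2 (0.49) were called higher in KO-IR than in Control-IR, and mitochondrial Pck2 lower (-0.52), with edgeR adjusted p of 0.00489, 0.00807, 0.00755 and 0.0106.

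Genes of precursor uptake and entry were called in both directions. Of 14 genes 2 were called higher and 4 lower in Control-IR against Control, 2 higher and 5 lower in KO-IR against Control-IR, and 5 higher and 8 lower in KO-IR against KO. Over all genes tested 11.4%, 22.5% and 32.9% were called higher and 7.97%, 24.4% and 32.7% lower in these comparisons. The lactate cotransporter Slc5a12 had 374 ± 144 CPM in Control-IR and 32.2 ± 13.6 in KO-IR (log2 difference -3.56, SE 0.39, edgeR adjusted p 4.988e-04). The monocarboxylate transporter Slc16a1 (MCT1) went from 44.0 ± 3.95 to 240.0 ± 48.4 CPM (log2 difference 2.44, SE 0.16, edgeR adjusted p 1.172e-04). Glycerol kinase (Gk) and the glutamine transporter Slc38a3 were called lower in KO-IR than in Control-IR, with log2 differences of -1.76 and -1.79 (edgeR adjusted p 0.00248 and 0.00292). In Control-IR against Control the mitochondrial pyruvate carrier Mpc1 was called lower (-0.95) and alanine aminotransferase Gpt2 higher (1.02), with edgeR adjusted p of 0.00608 and 0.0286.

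Among 11 other genes for transporters of sugars and related solutes, 9 were tested. Of these 4 were called lower and 1 higher in Control-IR against Control, and 5 lower and 2 higher in KO-IR against Control-IR (median log2 difference -1.35), beside 7.97% and 24.4% of all genes called lower and 11.4% and 22.5% called higher. GLUT1 (Slc2a1), the widespread basolateral glucose transporter, rose from 62.0 ± 19.3 CPM in Control-IR to 195 ± 53.9 CPM in KO-IR (log2 difference 1.66, SE 0.27, edgeR adjusted p 0.00216). Slc5a9 (-2.24), Slc2a4 (GLUT4, -1.67) and Slc5a11 (-1.67) were called lower, with edgeR adjusted p of 2.013e-04, 0.0491 and 0.00820. GLUT1 and GLUT2 thus moved in opposite directions in the same libraries.

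Of 12 glycolytic genes tested, 4 were called higher and none lower in Control-IR against Control, and 2 higher and 5 lower in KO-IR against Control-IR, beside 19.4% and 46.9% of all genes called. Liver-type pyruvate kinase (Pklr), which uses up phosphoenolpyruvate, the product of Pck1, had 40.6 ± 1.34 CPM in Control, 94.1 ± 14.3 in Control-IR, 35.0 ± 3.29 in KO and 22.0 ± 7.46 in KO-IR. It was called higher in Control-IR against Control (1.22, SE 0.12, edgeR adjusted p 0.00306) and lower in KO-IR against Control-IR (-2.09, SE 0.24, edgeR adjusted p 5.722e-04). The phosphofructokinases Pfkm (-1.25) and Pfkl (-1.03) were lower and Pfkfb3, which makes an activator of phosphofructokinase, higher (0.99) in KO-IR than in Control-IR, with edgeR adjusted p of 0.00817, 0.00197 and 0.00680.

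Of 19 regulators of these genes, 1 was called higher and 8 lower in Control-IR against Control, 5 higher and 5 lower in KO-IR against Control-IR, and 3 higher and 11 lower in KO-IR against KO. Over all genes tested 11.4%, 22.5% and 32.9% were called higher and 7.97%, 24.4% and 32.7% lower in these comparisons. Cebpb was called higher in Control-IR against Control (1.95, edgeR adjusted p 0.0266) and higher again in KO-IR against Control-IR (1.68, edgeR adjusted p 0.00510), with a mean of 3.04 CPM in Control and 38.0 CPM in KO-IR. Klf15 (-1.36), Irs1 (-1.48) and Foxo3 (-1.11) were called lower in Control-IR against Control (edgeR adjusted p 0.0213, 0.0247 and 0.0142). In KO-IR against Control-IR Irs2 (1.58) and Ppara (1.17) were called higher and Esrra (-1.31) lower (edgeR adjusted p 1.616e-04, 0.00675 and 0.00355). No gene of the 6 lists was called between the sham groups, where edgeR called none at all. The median log2 differences in KO-IR against Control-IR, beside -0.0049 for all genes tested, were -0.022 for the other gluconeogenesis genes, -0.60 for fructose metabolism, -0.35 for precursors, -0.15 for glycolysis and -0.28 for the regulators. Of the 24 genes named for that comparison, 21 were called in every fit that left out 1 library; Sord and Tkfc were lost without KO-IR library 3 or 4, and Slc2a4 was called in 1 of 6 such fits. Of the 18 chosen by the same rule for Control-IR against Control, 3 (Mpc1, Slc16a1 and Pklr) were called in every such fit. Without the Control libraries with Xist, edgeR called 0 higher and 1 lower of the other gluconeogenesis genes in Control-IR against Control, 0 and 1 of fructose metabolism (Sord), 1 and 2 of the precursor genes, 0 and 1 of the transporters (Slc5a11), 3 and 0 of glycolysis and 1 and 2 of the regulators. Mpc1, Slc16a1, Pklr, Cebpb, Klf15 and Foxo3 were called in that fit, and Gpt2 and Irs1 were not (edgeR adjusted p 0.0858 and 0.0774).

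Over the 12 libraries the likeness between the 9 genes was graded. Pearson's r of log2(CPM + 1) was 0.992 for Fbp1 and Khk, 0.98 for Slc37a4 and Khk and 0.983 for Slc2a2 and Slc5a1, against 0.0922 for Pck1 and Slc2a2 and 0.13 for Pck1 and Slc5a1, with values between for other pairs such as G6pc and Khk (0.923), Khk and Slc5a1 (0.837) and Slc37a4 and Slc2a2 (0.862). The libraries share the group structure, so these values describe the groups as much as the genes, and no test is given. Of the 16167 other genes, the most alike to Slc2a2 were Slc7a7, Olfm3 and Ctso (each 0.994), and to Slc5a1 they were Sema3b (0.994), Slc5a12 and Slc7a7 (both 0.992). Slc22a18 and Mpc2 were among the 3 genes most like Khk, and Fbp1 was most like Upb1 (0.993), Khk and Ttc36. Pck1 was most like Urgcp (0.964), Klf15 (0.928) and Tob2 (0.922), a looser likeness than that of the other genes named here. G6pc was most like Nap1l5 (0.983), Slc37a4 was most like Slc31a1 (0.993), Pcx was most like Lpin1 (0.971) and Slc5a2 was most like Dpep1 (0.983).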

How the data were processed

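Kidney RNA was isolated with TRIzol and read on an Illumina instrument by the authors, who deposited 1 table of read counts, 1 row per Ensembl gene and 1 column per library, neither normalized nor filtered. Per the labels, HISAT2 2.0.4 and mm10 were used, and the counting program, annotation and strand setting are not given in the sources used here. Symbols and positions came from GENCODE M21, promoters from RefSeq (GRCm38.p6). In R 4.3.3 with edgeR 4.0.16, low counts were removed by filterByExpr, TMM factors were computed and quasi-likelihood tests were run within the 6 libraries compared (all 12 for the interaction), with Benjamini-Hochberg adjustment over all genes tested. CPM per kb divides CPM by the union of exons. Named list genes were up to 4 per list and comparison, the largest called changes with a mean of at least 100 counts, and 3 like-patterned genes per member, of which 1 is not reported here. The 9 genes and the lists were chosen with earlier results of these data known. Alternatives were DESeq2 1.42.0, other scalings and filters, 1 fit to all libraries, a replicate block, and leaving out libraries. The fits were also run on simulated counts with the same spread for every gene and few genes changed. That setting is simpler than these data, so it does not measure how often the calls here are wrong. Same-numbered libraries did not deviate together (12 pairs, median correlation -0.0306), so no pairing was used.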

Additional observations from a re-analysis of the deposited data

Results flagged for a closer look

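The change after I/R differed between KO and controls by the edgeR interaction test for 3 of the 9 genes, and each is given as the log2 change in KO minus that in controls. For Slc2a2 the difference was -3.27 (SE 0.34, edgeR adjusted p 8.377e-05), from a fall to 62.9% of the sham mean in controls and to 6.57% in KO. For Slc5a1 it was -1.42 (SE 0.17, edgeR adjusted p 2.066e-04), from 67.4% and 25.2%. For Slc37a4 it was -1.47 (SE 0.46, edgeR adjusted p 0.0295), from 49.4% and 17.8%, and this call was lost without the Control libraries with Xist (-1.20, edgeR adjusted p 0.203) and in 7 of the 12 fits that left out 1 library (-1.43 to -1.22). The summed proximal tubule markers fell with these genes, and their part in the differences was not tested. Beside the marker sum, Slc2a2 was lower in KO-IR than in every other library, while Slc5a1 was inside its KO range, and above it when Slc27a2 was taken out of the sum. Slc37a4 was at 7.19 to 12.1 per 1000 marker counts in KO-IR, below its KO range of 13.3 to 15.5. With Slc27a2 taken out it was 12.5 to 21.6, beside 16.2 to 19.8 in KO.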

How the results depend on the processing

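Slc2a2 and Slc5a1 kept their direction and their calls in every alternative of KO-IR against Control-IR, KO-IR against KO and the interaction. The number of the 9 genes called moved otherwise. In Control-IR against Control it was 5, 8 with DESeq2, 7 with no low-count filter or 1 fit to all 12 libraries, 1 without the Control libraries with Xist and 0 to 6 with 1 library left out. In KO-IR against Control-IR it was 3, but 5 with DESeq2, total counts, no low-count filter or a joint fit to all 12 libraries or to the 10 other than the Control libraries with Xist, and 2 to 5 with 1 library left out. In KO against Control it was 0, 3 with DESeq2 and 0 to 2 with 1 library left out. In KO-IR against KO it was 9, 8 with DESeq2, total counts or either joint fit, and 8 to 9 with 1 library left out, and in the interaction 3, 4 with DESeq2, total counts or no low-count filter (Fbp1 added), 2 without the Control libraries with Xist, and 2 to 5 with 1 library left out, the 5 being without Control-IR library 2. With the replicate number as a block it was 7, 2, 2, 8 and 2 in these 5 tests. No Control library enters KO-IR against Control-IR or KO-IR against KO, so there a joint fit changes the estimate of the spread and the genes tested and scaled together. The same-numbered libraries share only a number: 1 of 12 correlations was above 0.1 (-0.238 to 0.264).

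Signs turned only for differences that were not called. In KO-IR against Control-IR, G6pc (-0.096) was 1.03 under the block and -0.62 to 0.51 with 1 library left out, Pcx (0.15) was -0.047 with total counts and -0.10 to 0.42, and Slc5a2 (-0.13) was 0.063 under the block and -0.36 to 0.15. In KO against Control, without the Control libraries with Xist G6pc (-0.051) was 0.22, Slc37a4 (0.20) was -0.099 and Khk (0.025) was -0.0063; Khk was -0.10 with total counts and -0.11 to 0.11 with 1 library left out, and G6pc -0.23 to 0.12. In the interaction G6pc (-0.030) was 0.49 under the block and -0.57 to 0.57, Slc5a2 (0.15) -0.095 to 0.42, and Pcx (-0.32) was 0.041 without the Control libraries with Xist. The causes were not tested. Total counts in place of TMM moved the median log2 difference of all genes to 0.11, -0.21, -0.13, 0.05 and -0.11 in the order Control-IR against Control, KO-IR against Control-IR, KO against Control, KO-IR against KO and interaction. Depth limits none of the 9 genes, whose lowest count in any library was 166; 3 libraries per group limit the precision.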
